A study of Homo sapiens with 12 samples.

Results

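The genes described here are 7 replication-independent histone variants, H2AFX, H2AFY, H2AFZ, H2AFV, H3F3A, H3F3B and H1FX, picked by symbol from the 25369 genes of the deposited tables. All 7 are listed in the tables; 6 were above 0 and were among the 14627 genes tested, and H3F3A was listed at 0 in every library. RefSeq now names them, in the same order, H2AX, MACROH2A1, H2AZ1, H2AZ2, H3-3A, H3-3B and H1-10. They lie on chromosomes 11, 5, 4, 7, 1, 17 and 3, so no pair of them shares a chromosome.

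RNA was sequenced from HEK293T cells, an embryonic kidney line that carries the SV40 large T antigen and is easily transfected; the growth text of the labels calls the cells HEK293. A plasmid gave the cells either the Halo tag by itself (Control) or the tag joined to residues 196 to 346 of TNIP2 (Halo-TNIP2 196-346), a ubiquitin-binding regulator of NF-kB signalling. For each construct, RNA was taken from 100 µl of whole cell extract (Input) and from 90 µl of material purified through the tag (Pulldown), and ribosomal RNA was removed. This gave 4 groups, Control Input, Control Pulldown, TNIP2 Input and TNIP2 Pulldown, of 3 libraries each. The fragment is expressed from a plasmid in cells that also have their own TNIP2, and the labels name no promoter. Nor do they say that the numbered libraries came from separate transfections; p-values then reflect only how these libraries differ, which can be technical variation. The comparisons ask which of these transcripts were more or less abundant in the material bound to the tagged protein.

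Core and linker histones made for S phase come from clustered genes whose mRNAs end in a stem-loop instead of a poly(A) tail. Variant histones come from single genes outside those clusters, are made throughout the cell cycle and replace the canonical proteins at chosen places in chromatin, and their mRNAs are generally spliced, polyadenylated or both. H2AFX is an intermediate case, since its short, unspliced message can end either in the stem-loop or in a poly(A) tail.

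Recovered depth ran from 3587228 to 29499523 reads per library, and the 6 tested genes were read deeply, with between 527 reads (H2AFX in Control Pulldown 1) and 25726 reads (H2AFZ in TNIP2 Pulldown 2). The TNIP2 transcript had 272 to 304 normalized counts in Control Input and 309 to 1472 in Control Pulldown and, with the fragment, 13318 to 46568 before purification and 51905 to 193013 after it. Both plasmid and cellular RNA can give such reads, and all 6 libraries assigned to the fragment were above all 6 of the tag alone. TNIP2 Input 3 and TNIP2 Pulldown 3 stood apart from the other 10 libraries on the second principal component (54.7 and 47.8, against -25.7 to 2.8), which held 11.1% of the variance. Some results for H2AFX, H3F3B and H2AFV are therefore also given without those 2 libraries. Of 8 markers chosen for HEK293 cells, VIM was clear at 139 to 305 FPKM and PAX2 was near 0 at 0.0445 to 0.469 FPKM. The summed level of these markers was 221 to 271 FPKM in the first 3 groups and 333 to 455 FPKM in TNIP2 Pulldown, and its part in the results was not tested. The 5 blood markers summed to 0.962 to 2.34 FPKM, with HBB and CD3E at 0 in all 12 libraries.

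Levels between genes are compared in FPKM, which divides by transcript length. H2AFZ was the most abundant of the 6 in every group, with a mean of 949 FPKM in Control Input, 841 in Control Pulldown, 873 in TNIP2 Input and 1270 in TNIP2 Pulldown. H3F3B came next at 241, 220, 231 and 315 FPKM in the same order. H2AFV was the least abundant in every group, at 44.9, 48.7, 40.3 and 22.4 FPKM. The libraries of these 3 genes did not overlap those of their neighbours in the order, except that H3F3B overlapped H2AFX in TNIP2 Pulldown. H2AFX, H2AFY and H1FX lay between them at 80.5 to 103 FPKM in the first 3 groups, and most neighbours among them overlapped. In TNIP2 Pulldown, H2AFX moved to 232 FPKM, and the other members of that middle group stayed at 84.7 to 99.8 FPKM. The 6 genes together made up 0.208% to 0.255% of all normalized counts in every library, the extremes being TNIP2 Pulldown 2 and TNIP2 Pulldown 1.

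**Figure D1:**
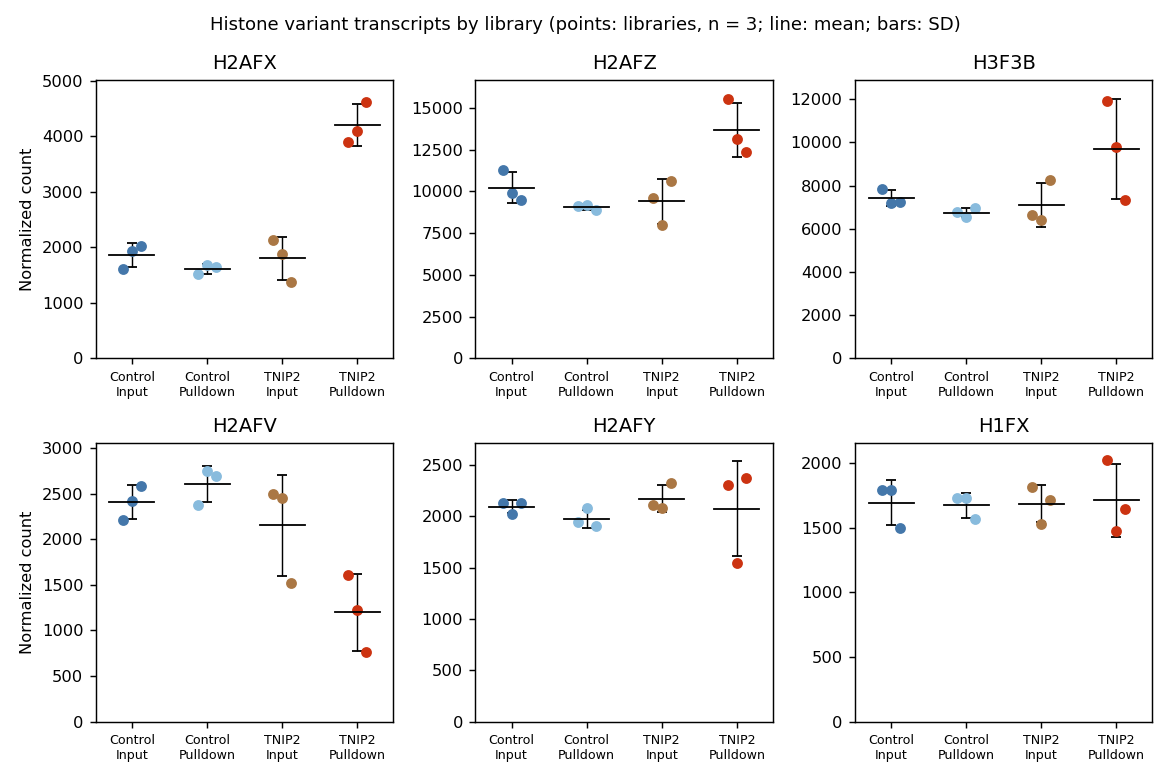
Normalized counts (vertical axis, from 0) of the 6 genes above 0 in the 12 libraries; points are libraries, lines are group means and bars are SD (n = 3). H2AFX is at 3888 to 4616 in TNIP2 Pulldown and at or below 2140 in the other groups, and H2AFV is lowest in TNIP2 Pulldown, with 1 library overlapping TNIP2 Input.

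H2AFX encodes H2A.X, the variant phosphorylated around DNA double-strand breaks. The extract of tag-alone cells held 1615, 1942 and 2031 normalized counts of H2AFX, and the purified material 1512, 1679 and 1637. With the fragment, the extract held 2140, 1888 and 1375 and the purified material 3888, 4095 and 4616. The 3 TNIP2 Pulldown libraries were above all 9 others, and the other 3 groups overlapped. The transcript was 2.36-fold higher in TNIP2 Pulldown than in TNIP2 Input (log2 fold change 1.24, SE 0.17, 95% interval 0.88 to 1.6, limma adjusted p = 2e-05). Against Control Pulldown it was 2.6-fold higher (log2 fold change 1.38, SE 0.17, limma adjusted p = 6.7e-06). Without the 2 libraries numbered 3 of the fragment, the change from Input was 0.99 (limma adjusted p = 1.6e-05). These are bulk libraries, so a higher level does not tell how many cells held the transcript.

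H2AFZ and H2AFV encode H2A.Z.1 and H2A.Z.2, nearly identical proteins that mark promoters and regulatory elements. Normalized counts of H2AFZ with the tag alone were 11271, 9904 and 9504 in the extract and 9156, 9161 and 8870 after purification. Those with the fragment were 9596, 7989 and 10634 in the extract and 15520, 13146 and 12383 after purification. All 3 TNIP2 Pulldown libraries were above all 9 others. H2AFZ was 1.46-fold higher in TNIP2 Pulldown than in TNIP2 Input (log2 fold change 0.54, SE 0.15, 95% interval 0.22 to 0.87, limma adjusted p = 0.0066) and 1.5-fold higher than in Control Pulldown (0.59, SE 0.15, limma adjusted p = 0.0038). This call depends on the scaling, as given with the plot of scalings. It was also lost when only the 2 groups compared were fitted (limma adjusted p = 0.062 against TNIP2 Input).

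H2AFV moved the other way. With the tag alone, H2AFV stood at 2212, 2416 and 2586 normalized counts in Input and at 2380, 2751 and 2690 in Pulldown. With the fragment, it stood at 2494, 2454 and 1515 in Input and at 1603, 1229 and 766 in Pulldown. TNIP2 Pulldown lay below both Control groups, but TNIP2 Input 3 (1515) was below TNIP2 Pulldown 1 (1603), so the TNIP2 groups overlapped by that pair. Within each replicate number of the fragment, Pulldown was 0.643, 0.501 and 0.506 of Input. H2AFV was 1.83-fold lower in TNIP2 Pulldown than in TNIP2 Input (log2 fold change -0.87, SE 0.24, 95% interval -1.39 to -0.36, limma adjusted p = 0.0061) and 2.27-fold lower than in Control Pulldown (-1.18, SE 0.24, limma adjusted p = 0.00065).

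The ratio of H2AFZ to H2AFV in FPKM does not change when a library is scaled by a single factor. Quantile normalization is not such a factor. Against TNIP2 Input it moved the log2 fold change of H2AFZ from 0.54 to -0.13 and that of H2AFV from -0.87 to -1.2. With the tag alone, it was 25.3, 20.4 and 18.3 in Input and 19.1, 16.5 and 16.4 in Pulldown. With the fragment, it was 19.1, 16.2 and 34.9 in Input and 48.1, 53.1 and 80.3 in Pulldown. All 3 TNIP2 Pulldown libraries were above all 9 others, and TNIP2 Input 3 was the highest of those 9. The mean log2 ratio was 1.42 higher in TNIP2 Pulldown than in TNIP2 Input and 1.77 higher than in Control Pulldown, each with p = 0.1 in a two-sided exact permutation test over libraries, the smallest p that 3 against 3 can give. It differed by -0.29 between Control Pulldown and Control Input (exact permutation p = 0.2) and by 0.07 between TNIP2 Input and Control Input (exact permutation p = 0.9).

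**Figure D2:**
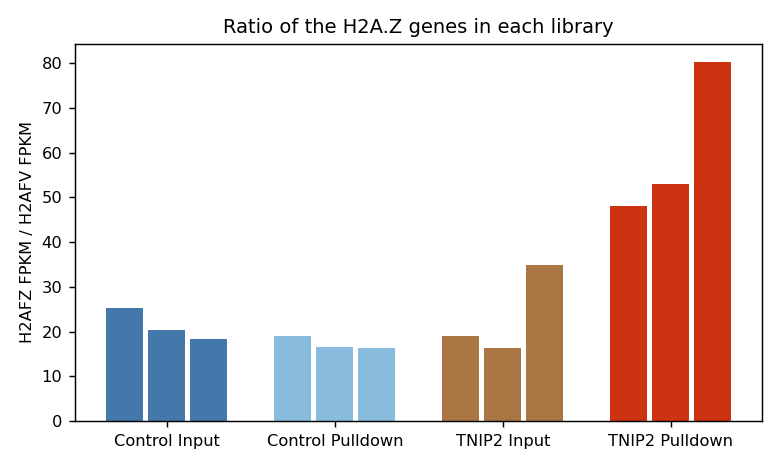
Ratio of H2AFZ FPKM to H2AFV FPKM (vertical axis, linear, from 0), with 1 bar per library in the order of the replicate numbers. The TNIP2 Pulldown bars reach 48.1 to 80.3, and the highest other library is TNIP2 Input 3 at 34.9.

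H2AFY encodes macroH2A1, an H2A with a large additional macro domain that is abundant in repressed chromatin. In tag-alone cells the normalized counts of H2AFY were 2130, 2023 and 2134 before and 1942, 2078 and 1902 after purification. In cells with the fragment they were 2106, 2083 and 2325 before and 2309, 1548 and 2372 after it. The groups overlapped, and TNIP2 Pulldown 2 was the lowest library. No change was called in TNIP2 Pulldown against TNIP2 Input (log2 fold change -0.09, 95% interval -0.43 to 0.26, limma adjusted p = 0.66).

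H3F3A and H3F3B both encode histone H3.3, the variant laid down at active genes and telomeres. H3F3A was listed at 0 in all 12 libraries of both tables, as was its processed pseudogene H3F3AP4, so no level of H3F3A can be given. How reads shared by near-identical copies were counted is not given in the sources used here, and the values of H3F3B are uncertain to that extent. The Control libraries of H3F3B had 7833, 7200 and 7248 normalized counts in Input and 6762, 6527 and 6978 in Pulldown. The TNIP2 libraries had 6643, 6390 and 8262 in Input, then 11940, 9805 and 7349 in Pulldown. TNIP2 Pulldown 1 and 2 were above all others, while TNIP2 Pulldown 3 lay within the range of TNIP2 Input. H3F3B was 1.35-fold higher in TNIP2 Pulldown than in TNIP2 Input (log2 fold change 0.43, SE 0.17, 95% interval 0.06 to 0.80, limma adjusted p = 0.044) and 1.41-fold higher than in Control Pulldown (0.49, SE 0.17, limma adjusted p = 0.023). The first call is close to the threshold: it was lost in 10 of 12 refits that left out 1 library, at limma adjusted p = 0.057 to 0.18, and was kept only without TNIP2 Input 3 or without TNIP2 Pulldown 3. The second was lost without Control Pulldown 1 or 2 and without TNIP2 Pulldown 1 or 2 (limma adjusted p = 0.052 to 0.1). The first was also lost with voom on recovered reads (0.35, voom adjusted p = 0.078) and with no filter on low values (limma adjusted p = 0.089). With only the 2 groups compared, both were lost (limma adjusted p = 0.16 and 0.061). Without both libraries numbered 3 of the fragment, the log2 fold changes were 0.73 (limma adjusted p = 0.00012) and 0.68 (limma adjusted p = 8.5e-05). That choice was made after the data were seen. Pulldown over Input of H3F3B was 0.889 for the libraries numbered 3, against 1.8 and 1.53 for those numbered 1 and 2. Leaving them out therefore raises both values, which were computed on the deposited scale only.

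H1FX encodes the linker histone H1X. For H1FX, Control libraries held 1793, 1791 and 1494 normalized counts before purification, and 1730, 1727 and 1563 after it. TNIP2 libraries held 1815, 1531 and 1711 before purification, and 2021, 1472 and 1641 after it. All groups of H1FX overlapped, and its log2 fold change in TNIP2 Pulldown against TNIP2 Input was 0.01 (95% interval -0.31 to 0.34, limma adjusted p = 0.95). Its antisense neighbour H1FX-AS1 was at 44 to 52 normalized counts in TNIP2 Pulldown and 62 to 126 in the other groups. The strand setting of the counting is not known, so reads of this pair cannot be assigned with certainty.

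Counted over the 6 tested genes, 3 were higher (H2AFX, H2AFZ and H3F3B), 1 was lower (H2AFV) and 2 were not called in TNIP2 Pulldown against TNIP2 Input, where 29.8% of all tested genes were higher and 28.3% lower. The same 3 genes were higher and the same gene lower against Control Pulldown, where 30.6% of all genes were higher and 28.7% lower; the comparisons share the TNIP2 Pulldown libraries. The median log2 fold change of the 6 genes was 0.22 against TNIP2 Input and 0.27 against Control Pulldown, beside 0.01 and 0.03 over all tested genes. It was below 0 after quantile normalization, after centring on ribosomal protein genes and after scaling to library totals, at -0.31 to -0.20 against TNIP2 Input and -0.29 to -0.08 against Control Pulldown. These counts are read against those backgrounds, and nothing particular to the variants is drawn from them.

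In the tag-alone cells, Control Pulldown against Control Input called 0 of the 6 genes either way in limma, beside 0% of all genes higher and 0.137% lower. None of the 6 had an unadjusted p under 0.05 in that comparison, while 342 of the 14627 tested genes had one. That is a smaller share than the 0.05 that would arise by chance alone. The spread was estimated over all 4 groups, and its part in this was not tested. With only the 2 groups compared, 44 of all genes were lower, up from 20. So 0 calls do not show that purification with the tag alone leaves these transcripts unchanged. Voom on the recovered reads also called 0 of the 6. TNIP2 Input against Control Input called 0 of the 6 in limma and in voom, beside 0.00684% of all genes higher and 0% lower. Again no gene of the 6 had an unadjusted p under 0.05, against 104 of the 14627 tested genes, also a share below 0.05. The log2 fold changes of the 6 ran from -0.19 for H2AFV to 0.05 for H2AFY.

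**Figure D3:**
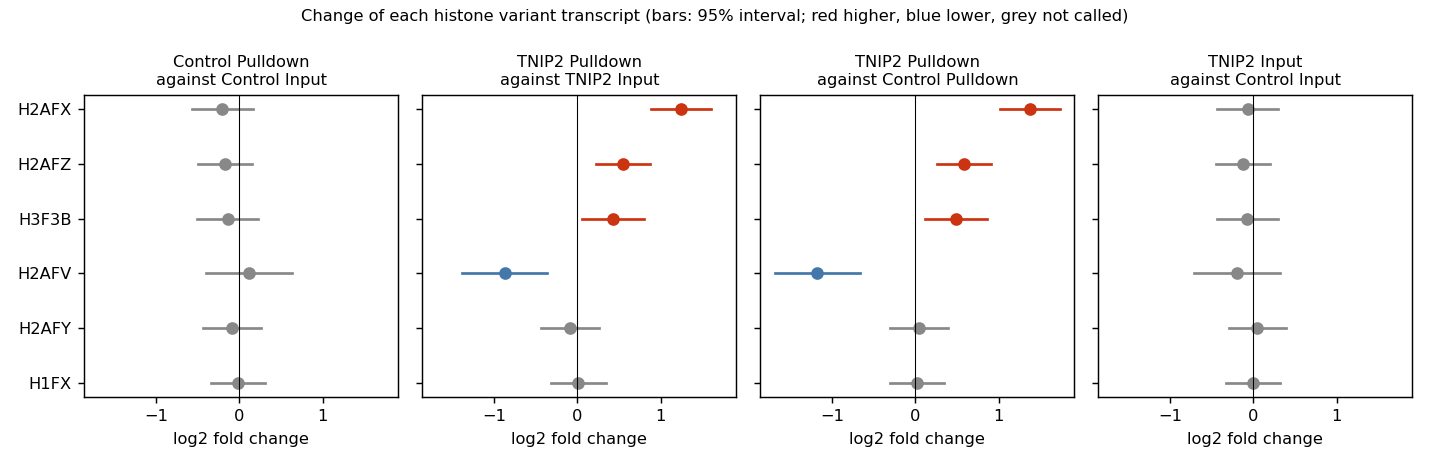
Log2 fold change (horizontal axis) of the 6 genes in 4 comparisons, with 95% intervals from limma; red is higher and blue lower at an adjusted p under 0.05, and grey is not called. H2AFX, H2AFZ and H3F3B are red and H2AFV blue in both comparisons of TNIP2 Pulldown, and all 6 are grey in the other comparisons.

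The difference of enrichments sets the change from Input to Pulldown with the fragment against that with the tag alone. It was 1.45 for H2AFX (SE 0.24, limma adjusted p = 0.00026), 0.71 for H2AFZ (SE 0.21, limma adjusted p = 0.015) and -0.99 for H2AFV (SE 0.34, limma adjusted p = 0.029). The H2AFZ call was lost after quantile normalization (-0.06, limma adjusted p = 0.83), after centring on ribosomal protein genes (0.12, limma adjusted p = 0.7) and after scaling to totals (0.23, limma adjusted p = 0.33). For H3F3B it was 0.57 and was not called (limma adjusted p = 0.075), but it was called without TNIP2 Input 3 (0.68, limma adjusted p = 0.033) and without TNIP2 Pulldown 3 (0.75, limma adjusted p = 0.0047). Without both of those libraries, a choice made after the data were seen, it was 0.87 (limma adjusted p = 0.00034). With all libraries, the H3F3B difference was -0.19, -0.03 and 0.08 under the same 3 scalings. So 2 of 6 genes were higher and 1 was lower on the deposited scale, beside 22.6% and 20.2% of all genes. The H2AFV call was lost in 6 of 12 refits without 1 library, namely Control Input 1 or 2, Control Pulldown 2 or 3 and TNIP2 Input 1 or 2 (limma adjusted p = 0.054 to 0.074), at values of -0.99 to -0.86. Without both TNIP2 libraries numbered 3 the H2AFV difference was -0.93 (limma adjusted p = 0.00059). With a replicate block within each construct, it was -0.99 (limma adjusted p = 0.00051). Both fits were chosen after the data were seen, and the labels state no pairing.

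Scaling bears on these results, because normalized counts of TNIP2 Pulldown libraries summed to more than those of the other 9. The totals were 12639745 to 15074851 in TNIP2 Pulldown and 10182326 to 11068819 elsewhere. Scaling to equal totals, or centring on 82 ribosomal protein genes, shifted the median of all genes in TNIP2 Pulldown against TNIP2 Input to -0.41 and -0.46. Higher genes made up 51.3% of all calls in that comparison as deposited, 30.9% after scaling to totals and 29% after centring. Against Control Pulldown these shares were 51.6%, 30.9% and 35.1%, and for the difference of enrichments 52.7%, 27.4% and 22.4%.

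H2AFX was called higher and H2AFV lower in both comparisons of TNIP2 Pulldown under every scaling tried. Against TNIP2 Input the log2 fold change of H2AFX ranged from 0.64 to 1.38 over 26 alternatives, and that of H2AFV from -1.34 to -0.58. H2AFZ was not called after centring (0.08), after scaling to totals (0.12) or after quantile normalization (-0.13), where its sign turned. H3F3B likewise went to -0.03, 0.01 and -0.24. H2AFY and H1FX, not called on the deposited scale, were called lower against TNIP2 Input under all 3 of these scalings, H2AFY at -0.56 to -0.52 and H1FX at -0.45 to -0.37.

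**Figure D4:**
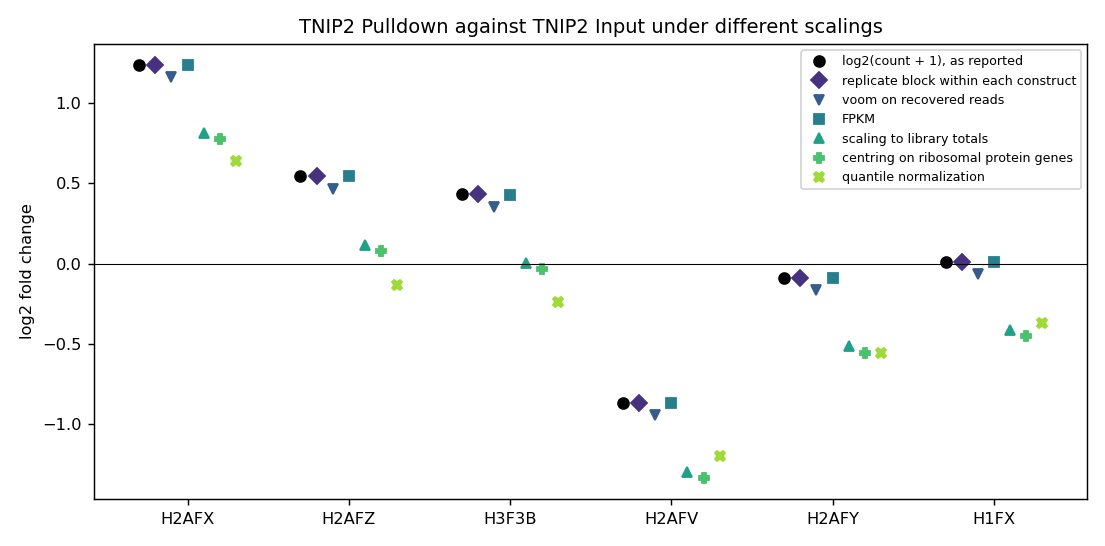
Log2 fold change in TNIP2 Pulldown against TNIP2 Input (vertical axis) of the 6 genes under 7 ways of scaling or testing, 1 symbol each. H2AFX stays above 0.6 and H2AFV below -0.8 throughout, and H2AFZ, H3F3B and H1FX cross 0 with the scaling.

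Other histone genes were counted beside these 6. Of 10 other variant histones, 3 passed the filter on low values. All 3 were lower in TNIP2 Pulldown than in TNIP2 Input, beside 28.3% of all genes, and also under the 3 other scalings. H2AFY2, the macroH2A2 gene, went from a mean of 947.7 ± 58.2 (SD, n = 3) to 568 ± 74 normalized counts (log2 fold change -0.74, limma adjusted p = 0.00042). H2AFJ went from 126.3 ± 15.9 to 70.33 ± 8.5 (-0.83, limma adjusted p = 0.0034). CENPA, the centromeric H3 variant, went from 398.7 ± 23.7 to 250.7 ± 68.7 (-0.71, limma adjusted p = 0.008).

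The replication-dependent histones, whose mRNAs carry the stem-loop, differed from the 6 variants in the count. Of 72 such genes 46 were tested, and 0 were higher and 40 lower in TNIP2 Pulldown against TNIP2 Input by limma. Of all tested genes, 29.8% were higher and 28.3% lower there. The median log2 fold change of the 46 was -2.11. HIST1H4H had a mean of 1816 ± 129 (SD, n = 3) in TNIP2 Input and 100.7 ± 16.4 in TNIP2 Pulldown, and HIST1H3A 1382 ± 326 and 79 ± 27.7. Part of this was seen with the tag alone: 9 of the 46 were lower in Control Pulldown than in Control Input, beside 0.137% of all genes. The median of the 46 was -1.03 there, and HIST1H4H was at 462.3 ± 51.2 in Control Pulldown. For the difference of enrichments 23 of the 46 were lower and 0 higher, beside 20.2% and 22.6% of all genes, with a median of -0.90. Many of these genes are close in sequence to others of the same histone type, so the split of reads among those is uncertain. The labels name removal of ribosomal RNA and no poly(A) selection.

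Genes for histone chaperones, remodellers and exchange factors, some linked to a variant and some general, were mixed. Of 35, 15 were higher and 8 lower in TNIP2 Pulldown against TNIP2 Input on the deposited scale, beside 29.8% and 28.3% of all genes, with a median log2 fold change of 0.30. Higher and lower genes numbered 10 and 12 after centring (median -0.16), 12 and 11 after scaling to totals (median -0.12), and 11 and 12 after quantile normalization (median 0.12). Among 9 linked to H3.3, 5 were higher and 0 lower as deposited, but 3 and 2 after centring, and 4 and 1 after scaling to totals or quantile normalization. One of them was DAXX, the chaperone that partners with ATRX, at 1365 ± 464 in TNIP2 Input and 9466 ± 2440 in TNIP2 Pulldown (log2 fold change 2.81, limma adjusted p = 8.9e-08). Among 12 linked to H2A.Z, 4 were higher and 5 lower as deposited, and 2 and 6 after centring or scaling to totals. Among 4 linked to CENP-A, 2 were higher and 2 lower, and OIP5, a subunit of the Mis18 complex, went from 295.7 ± 62.3 to 45.33 ± 4.04 (-2.66, limma adjusted p = 5.4e-08). Of 10 general factors 4 were higher and 1 lower as deposited, but 2 and 4 after quantile normalization. Among those higher were SUPT16H of the FACT complex (2.57, limma adjusted p = 2e-08) and CHAF1A of chromatin assembly factor 1 (1.95, limma adjusted p = 2.6e-08), both also higher under the 3 other scalings.

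Of 15 genes for processing and control of histone mRNA, 6 were higher and 2 lower in the same comparison as deposited, beside the same 29.8% and 28.3% of all genes, with a median of 0.29. After centring and after scaling to totals, 4 were higher and 6 lower (medians -0.18 and -0.14), and after quantile normalization 5 were higher and 3 lower (median 0.27). SLBP, which binds the stem-loop, had 1103 ± 17.9 normalized counts in TNIP2 Input and 2875 ± 329 in TNIP2 Pulldown (log2 fold change 1.38, limma adjusted p = 9.3e-07). CASP8AP2, needed for histone gene expression in S phase, was higher by 2.47 (limma adjusted p = 2.8e-08), CCNE1, cyclin E1, by 2.08 (limma adjusted p = 3.6e-07) and SSB, the La protein, by 1.95 (limma adjusted p = 9.2e-07) on the log2 scale. All 4 remained higher under the other scalings.

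**Figure D5:**
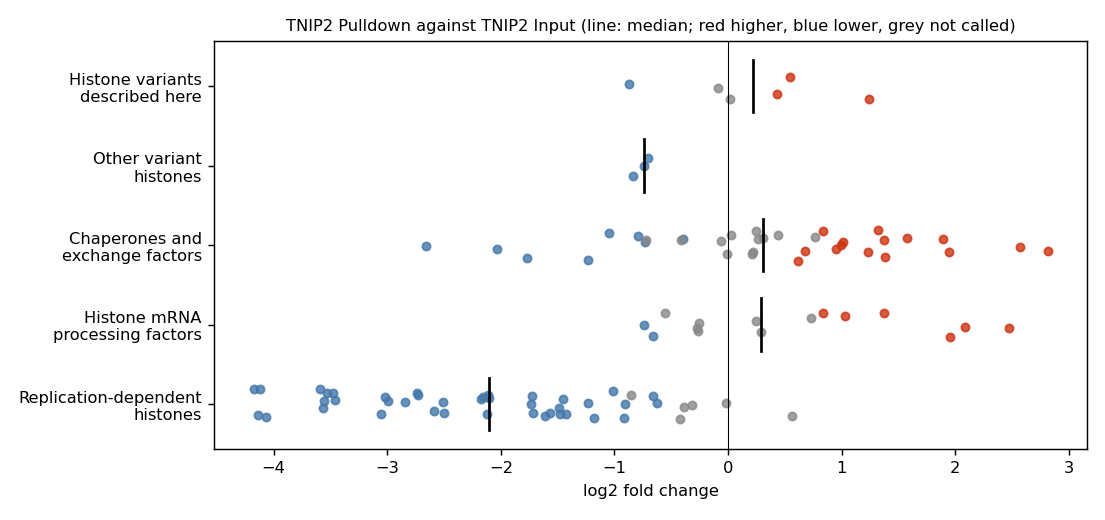
Log2 fold change in TNIP2 Pulldown against TNIP2 Input (horizontal axis) of each tested gene of the 5 histone-related lists; each point is a gene, the line is the list's median, red is higher, blue lower and grey not called in limma. The 6 variants lie between -0.87 and 1.24, and the replication-dependent histones have a median of -2.11.

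Each gene had close followers over the 12 libraries, given as Pearson r of log2 values without a test, since libraries of a group move together and all genes share the libraries' depth and scaling. The most similar tested gene was NCOA6 for H2AFX (r = 0.98), PHB2 for H2AFZ (r = 0.98), CNTNAP2 for H2AFV (r = 0.99) and OTUD6B for H3F3B (r = 0.97). For the 2 genes that were not called, it was RAET1G for H2AFY (r = 0.87) and ALDH18A1 for H1FX (r = 0.92).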

How the data were processed

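The authors deposited 2 tables by gene symbol, one of FPKM and one of normalized counts, a score in whole numbers and not raw counts. Per the submitters' processing notes, the tools were TopHat2 2.0.14 and DESeq2 1.6.3, with build hg19. Which counter, strand setting and gene models were used is not given in the sources used here. Columns lettered C were matched to Control, and those lettered F to the TNIP2 fragment by elimination. Low values allowed whole reads to be recovered (97.5% of 1577 low values were whole within 0.1 reads). A library's depth was 3587228 to 29499523 reads, an 8.22-fold range, and the counting error of a tested histone variant described here was at most 4.36%.

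Genes with 10 or more normalized counts in at least 3 libraries (14627) were tested on log2(normalized count + 1), which understates changes of low genes, with limma 3.58.1 (lmFit and eBayes with trend, R 4.3.3) and a mean per group over 12 libraries. All 5 comparisons used two-sided p-values adjusted by Benjamini-Hochberg over every gene tested, with a threshold of 0.05. The script was tested on simulated data. Fold changes come from fitted log2 values. Alternatives were the pseudocount, the filter, the scaling, FPKM, voom on recovered reads, library weights, the samples fitted, a replicate block and leaving out each library. The genes and all lists were chosen with earlier results of these data known. Named beside them are up to 4 genes of each related list and 2 replication-dependent histones with the smallest p in TNIP2 Pulldown against TNIP2 Input, and the gene most like each variant. H1FX-AS1 and H3F3AP4 were named after their values were seen.

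Deviations from group means correlated by 0.37, 0.46 and 0.5 between TNIP2 Input and Pulldown libraries of the same number, and by 0.07 to 0.08 for Control. TNIP2 Input and Pulldown libraries of different number gave -0.45 to 0.27, and every value below 0 involved a library numbered 3. The labels do not state a pairing, so numbers may pair the TNIP2 fractions and were not taken to pair other groups. Of markers of fibroblasts and endothelium, 3 of 6 were tested, with 0 higher and 1 lower in TNIP2 Pulldown against TNIP2 Input; for blood 2 of 5 were tested with 0 called, and for HEK293 8 of 8, with 3 higher and 1 lower. Names were taken from RefSeq, where all 7 symbols matched. Of the 8 genes the selection lists, 1 is not reported here.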

Additional observations from a re-analysis of the deposited data

Results flagged for a closer look

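Pulldown over Input differed between the TNIP2 fragment and the tag alone, by a test of the difference itself in limma on the deposited scale, for 3 of the 6 tested genes: 2 were higher and 1 lower, beside 22.6% and 20.2% of all genes. H2AFX had a difference of enrichments of 1.45 on the log2 scale, and it was also called under quantile normalization (0.85), centring (0.85) and scaling to totals (0.96). H2AFZ had a difference of 0.71, which was not called under those 3 scalings (-0.06, 0.12 and 0.23). H2AFV had a difference of -0.99, which was called under those 3 scalings (-1.34, -1.59 and -1.48) but was lost in 6 of 12 refits that left out 1 library (limma adjusted p = 0.054 to 0.074). It was called with a replicate block within each construct (limma adjusted p = 0.00051), a fit chosen after the data were seen.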

How the results depend on the processing

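The 4 comparisons and the difference of enrichments were recomputed under up to 26 alternatives; scaling to library totals, the block within each construct and leaving out both TNIP2 libraries numbered 3 were chosen after seeing the data. Members called higher fell from 3 to 1 under scaling to totals, quantile normalization and ribosomal centring in both comparisons of TNIP2 Pulldown, and to 1 against TNIP2 Input with only the groups compared; for the difference they fell from 2 to 1 under those 3 scalings. Members called lower went from 1 to 3 against TNIP2 Input under those 3 scalings, and to 3 (quantile) and 2 (totals) against Control Pulldown. Leaving out 1 library gave 0 to 1 members lower in the difference. Of values called in either setting, signs turned under quantile normalization against TNIP2 Input for H3F3B (-0.24), H2AFZ (-0.13) and H1FX (-0.37), against Control Pulldown for H3F3B (-0.22), H2AFZ (-0.025), H1FX (-0.36) and H2AFY (-0.40), and in the difference for H2AFZ (-0.063). They also turned against TNIP2 Input under centring for H3F3B (-0.035) and H1FX (-0.45), and under totals for H1FX (-0.41, and -0.43 against Control Pulldown). Values called in neither setting also turned, among them the difference for H3F3B (-0.19 quantile, -0.03 centring). The causes were not tested. The replicate block changed no call of the 6 genes (H2AFX 1.24, adjusted p = 3e-05; H3F3B 0.43, adjusted p = 0.048), nor did the block within each construct, where H2AFV had adjusted p = 5.1e-05 against TNIP2 Input. The log2 ratio of H2AFZ to H2AFV differed by 1.19 to 1.74 against TNIP2 Input and by 1.55 to 1.92 against Control Pulldown when 1 library was left out; the planned ratio of H3F3A to H3F3B could not be computed. Among all genes, those lower in Control Pulldown numbered 20, but 111 with library weights, whose estimation did not converge, and 44 with only the groups compared. Those higher in TNIP2 Input numbered 1, but 1866 with library weights. Only the groups compared gives no difference of enrichments, which needs all 12 libraries.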
